A study of Mus musculus with 6 samples.

Results

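Calcium signalling from the T cell receptor reaches the nucleus through the phosphatase calcineurin and the NFAT transcription factors, and 8 genes of that route and of the TOX family are described here in regulatory T (Treg) cells of a mouse tumour. They are the NFAT genes Nfatc1, Nfatc2 and Nfatc3, the calcineurin catalytic subunit genes Ppp3ca and Ppp3cb, the calcineurin regulator Rcan1, and the nuclear factors Tox and Tox2. They were chosen by gene symbol, 8 of the 55450 genes in the deposited table, and all 8 were among the 12155 genes that passed the filter on low values.

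The libraries were made from Treg cells sorted out of MC38 tumours, a transplantable colon carcinoma, when these were about 8 mm wide in C57BL/6 mice. 3 libraries came from animals whose Treg cells were sufficient for Tim-3 and 3 from animals whose Treg cells were deficient in it. Havcr2 is the gene of Tim-3, an inhibitory receptor of T cells. The labels name neither the allele nor a driver of the deletion, give no age, and leave it unsaid if separate animals were behind the libraries of a group. A p-value here therefore reflects only library-to-library spread, part of which may be technical.

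Values are log2(TPM + 1), where TPM is the abundance of a gene's transcripts per length and per 1000000 in its library, so levels of different genes can be set side by side. Read depth is unknown. The libraries are called sufficient A1, B1 and dated, and deficient C1, D and dated, after marks in the column names. In each group 1 column name holds a calendar date, which marks the dated library, and the other 4 libraries are called undated. A difference is deficient minus sufficient on this log2 scale, given with its standard error (SE), and it understates the change of low genes.

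In a resting T cell NFAT proteins are phosphorylated and held in the cytoplasm. Release of calcium from the endoplasmic reticulum opens ORAI channels in the plasma membrane through STIM sensors, calmodulin then activates calcineurin, and calcineurin strips phosphates from NFAT, which enters the nucleus. There NFAT acts with AP-1 on cytokine genes and with FOXP3 on Treg genes. Without AP-1 it drives genes of unresponsiveness and exhaustion, and TOX is a known factor of that state in chronically stimulated T cells. RCAN1 binds and inhibits calcineurin. Its gene has an internal start that NFAT itself is known to switch on, which makes Rcan1 a common readout of calcineurin activity.

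The gene-level value of Rcan1 sums transcripts from its upstream and internal starts, and both are shown, with the 250 bases before the starts of Nfatc2 and Ppp3cb, because NFAT is known to act on the internal start and the starts of these 2 other genes had as many matches to its core motif. The sequences are from RefSeq on GRCm38.p6, 5′ to 3′ on the gene's strand, and capitals mark the NFAT core GGAAA or, on the other strand, TTTCC. The internal Rcan1 window (chr16:92400079-92400328, minus strand) lies within an intron of the longer transcripts. The upstream window (chr16:92466170-92466419, minus strand) lies within an intron of the longest transcript. The Nfatc2 (chr2:168601658-168601907, minus strand) and Ppp3cb (chr14:20546574-20546823, minus strand) windows lie before the first base of the gene.
Rcan1 internal start: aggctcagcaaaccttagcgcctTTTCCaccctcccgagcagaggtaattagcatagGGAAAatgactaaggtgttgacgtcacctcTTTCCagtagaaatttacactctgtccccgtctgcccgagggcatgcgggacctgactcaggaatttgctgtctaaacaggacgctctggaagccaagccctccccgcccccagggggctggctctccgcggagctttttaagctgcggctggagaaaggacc
Rcan1 upstream start: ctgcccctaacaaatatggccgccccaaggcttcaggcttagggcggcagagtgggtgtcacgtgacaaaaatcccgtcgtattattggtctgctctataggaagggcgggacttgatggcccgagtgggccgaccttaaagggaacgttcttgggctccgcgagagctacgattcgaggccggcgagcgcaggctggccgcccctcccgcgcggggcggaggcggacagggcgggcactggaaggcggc
Nfatc2: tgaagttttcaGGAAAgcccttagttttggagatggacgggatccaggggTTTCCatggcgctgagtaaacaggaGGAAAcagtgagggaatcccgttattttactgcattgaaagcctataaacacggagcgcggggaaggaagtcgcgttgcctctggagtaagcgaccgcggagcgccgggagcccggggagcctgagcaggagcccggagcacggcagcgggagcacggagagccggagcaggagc
Ppp3cb: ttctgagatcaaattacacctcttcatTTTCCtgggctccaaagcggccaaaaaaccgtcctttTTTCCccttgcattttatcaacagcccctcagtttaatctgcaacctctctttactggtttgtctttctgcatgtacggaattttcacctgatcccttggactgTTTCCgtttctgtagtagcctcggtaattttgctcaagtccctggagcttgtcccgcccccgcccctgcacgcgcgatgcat

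The internal Rcan1 window held 3 matches to the core and the upstream Rcan1 window held 0. The Nfatc2 and Ppp3cb windows held 3 each. Of 32851 such windows in the RefSeq table, 55.6% held at least 1 match and 6.39% held at least 3. Windows for 5 of the 8 genes were in that table. Besides the 4 windows shown, the second Nfatc2 start had 1 match, the 2 Nfatc3 starts had 1 and 0, and the 5 Tox2 starts had 0, 0, 0, 1 and 1. The last 2 Tox2 windows (chr2:163225203-163225452 and chr2:163225204-163225453) are nearly the same stretch and share their match. The first 2 Tox2 windows also overlap. The core is 5 bases long, and a match describes letters, not a bound site.

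Havcr2 stood lower in each of the deficient libraries than in any sufficient library, at 5.70, 5.64 and 4.49 in sufficient A1, B1 and dated and 3.54, 4.27 and 2.55 in deficient C1, D and dated (difference -1.83 ± 0.48 SE, limma adjusted p = 0.211, and 0.0148 when the date mark was a block). Exons outside a deleted part can still be read, so this does not measure the loss. All 8 Treg markers were expressed in every library, and limma called 0 of them. Their differences were negative for 6, against 39.9% of all tested genes, with a median of -0.28. Foxp3 had 0.31 and Il2ra -0.67. The T cell receptor complex genes Cd3d (-0.51) and Cd3e (-0.32) lay lower without overlap, as 6.73% of all tested genes did. Macrophage markers were uneven: 6 of 10 passed the filter, and their summed TPM was 105, 670 and 22.4 in sufficient A1, B1 and dated and 1083, 15.7 and 18.8 in deficient C1, D and dated. Of 6 B cell markers 3 passed the filter and all 3 had positive differences, Cd79b at 0.84, Ighm at 0.43 and Igkc at 1.49. Igkc lay higher without overlap, as 10.9% of all tested genes did. Limma called 0 of these 3 markers with or without the date block. With the block all 3 had an unadjusted p under 0.05, against 19.7% of all tested genes. The summed TPM of the 6 was 384, 338 and 614 in sufficient A1, B1 and dated and 582, 674 and 793 in deficient C1, D and dated, and Ms4a1 was at 0 in all libraries. The deficient dated library also stood apart, with the Y-linked Ddx3y, Eif2s3y, Kdm5d and Uty at 0.014 or less, against 2.61 to 6.84 in the other 5, and Xist at 2.01, against 0.029 or less. The part of these transcripts and of this library in the differences was not tested. For some genes, differences without deficient dated, or without sufficient B1 and deficient C1, are given below. Fewer expressing cells and less RNA per cell cannot be told apart in bulk libraries.

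None of the 8 genes changed between Tim-3 sufficient and deficient Treg cells at a Benjamini-Hochberg adjusted p under 0.05. Limma called 0 of 8 over all tested genes, against 25 of 12155 tested genes (0.206%), and 0 of 8 had an unadjusted p under 0.05, against 11.7% of all tested genes. With the date mark blocked, it again called 0 of 8, against 1.97% of all tested genes, and 1 of 8, Ppp3ca, had an unadjusted p under 0.05, against 19.7%. The groups overlapped for each of the 8, whereas they did not overlap for 17.6% of tested genes. 7 of the 8 differences were negative and 1, that of Tox, was positive. Over all tested genes 39.9% were negative. The median difference was -0.20 over the 8 genes and 0.09 over all tested genes.

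**Figure D1:**
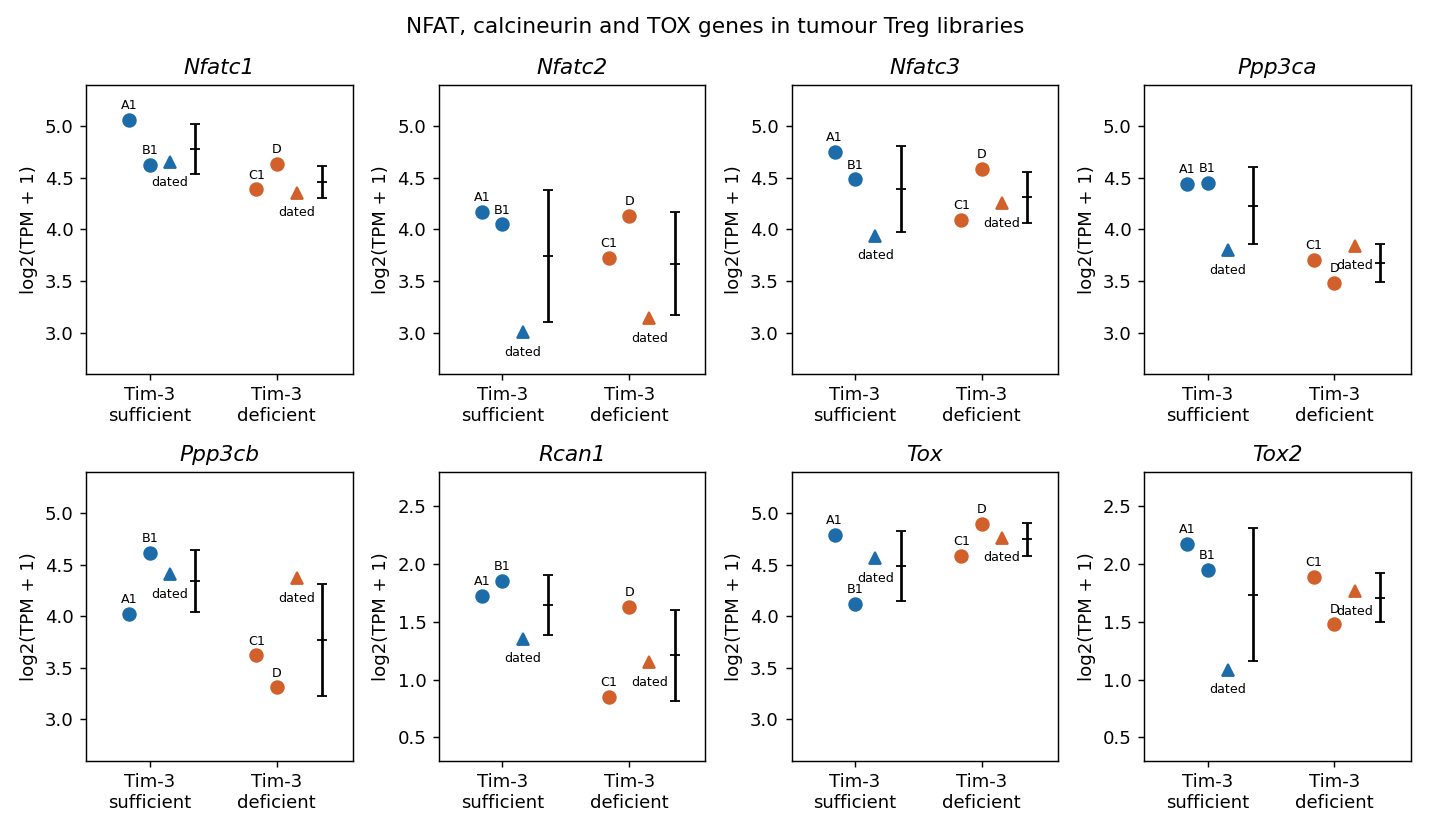
Level of each gene in log2(TPM + 1) on the vertical axis, 1 point per library (circles undated, triangles dated), with the group mean and SD (n = 3) as a black bar; the panels of Rcan1 and Tox2 have a lower axis range than the other 6. The groups overlap in each panel, and Nfatc2 is lowest in the dated library of both groups, at 3.00 and 3.14.

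Nfatc1, Tox, Nfatc3, Ppp3cb, Ppp3ca and Nfatc2 were expressed at like levels, and Tox2 and Rcan1 stood well below them. Averaged over the 6 libraries, the levels in that order were 4.62, 4.62, 4.35, 4.05, 3.95 and 3.70, then 1.72 for Tox2 and 1.43 for Rcan1. Nfatc1 lay at the 67.0 percentile of tested genes by mean level, Nfatc2 at the 52.7 percentile and Rcan1 at the 11.7 percentile. Of neighbours in this order, only Nfatc2 and Tox2 were ordered the same way in all 6 libraries. Tox exceeded Nfatc3 in 5 libraries, Ppp3ca exceeded Nfatc2 in 4, and Tox2 exceeded Rcan1 in 4. Nfatc3 against Ppp3cb and Ppp3cb against Ppp3ca were each split 3 to 3. Nfatc1 stood above Tox in the 3 sufficient libraries and below it in the 3 deficient ones, an order seen after the values and not tested.

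Nfatc1, whose product is itself induced by NFAT through an autoregulatory promoter in activated lymphocytes, was the steadiest of the NFAT genes. It had 5.06, 4.62 and 4.65 in sufficient A1, B1 and dated and 4.39, 4.63 and 4.35 in deficient C1, D and dated. Deficient C1 and dated lay below every sufficient library, and deficient D lay within the sufficient range. The means were 4.78 ± 0.25 and 4.46 ± 0.15 (SD, n = 3 each; ENSMUSG00000033016.16), a difference of -0.32 ± 0.21 SE with a 95% interval of -0.80 to 0.16 (limma adjusted p = 0.575). Undated libraries gave -0.33 and the dated pair gave -0.30, and leaving out each library in turn gave -0.18 (without sufficient A1) to -0.41 (without deficient D).

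Nfatc2 encodes the NFAT protein that is present before stimulation in resting T cells. Its level followed the date mark more than the group. It stood at 4.17, 4.05 and 3.00 in sufficient A1, B1 and dated and at 3.73, 4.13 and 3.14 in deficient C1, D and dated. Both dated libraries were lowest in their groups, and dated minus undated was -1.11 in sufficient and -0.79 in deficient cells. The group difference was -0.07 ± 0.39 SE (ENSMUSG00000027544.16, GRCm38 chromosome 2, 168476410 to 168601657, minus strand; 95% interval -0.97 to 0.82, limma adjusted p = 0.957). Once the date mark was blocked, the interval was -0.56 to 0.41, and without the deficient dated library the difference turned to 0.19.

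Nfatc3, the NFAT gene highly expressed in the thymus, had 4.75, 4.48 and 3.94 in sufficient A1, B1 and dated and 4.10, 4.58 and 4.25 in deficient C1, D and dated. All deficient libraries lay within the sufficient range. The difference was -0.08 ± 0.27 SE (ENSMUSG00000031902.10, GRCm38 chromosome 8, 106058840 to 106130537, plus strand; 95% interval -0.70 to 0.53, limma adjusted p = 0.929), with -0.28 for the undated and 0.31 for the dated libraries, which have opposite signs. The sign also turned when sufficient A1 or deficient C1 was left out. Exons of Esrp2 on the opposite strand overlap Nfatc3, but Esrp2 reached at most 0.11 in any library.

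Together the NFAT genes gave 75.4, 60.6 and 45.4 summed TPM in sufficient A1, B1 and dated and 48.3, 63.3 and 45.3 in deficient C1, D and dated. Nfatc1 was the largest part in every library, at 37.6% to 53.0% of the sum, followed by Nfatc3 at 31.6% to 39.8% and Nfatc2 at 15.4% to 26.1%. Nfatc1 held 45.0 ± 7.2% of the sum in sufficient and 40.6 ± 2.7% in deficient libraries (SD, n = 3 each; exact two-sided permutation p = 0.4, where 0.1 is the smallest that 3 against 3 allows). That difference of -4.42 percentage points was -0.43 without sufficient dated and -7.41 without sufficient B1. The highest Nfatc1 share, 53.0%, was in sufficient dated, where Nfatc2 and Nfatc3 were low. Across 5 such shares tested (the 3 NFAT genes, Ppp3ca against Ppp3cb, Tox against Tox2), exact permutation p lay between 0.4 and 1, and from 0.75 to 1 after Benjamini-Hochberg adjustment.

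**Figure D2:**
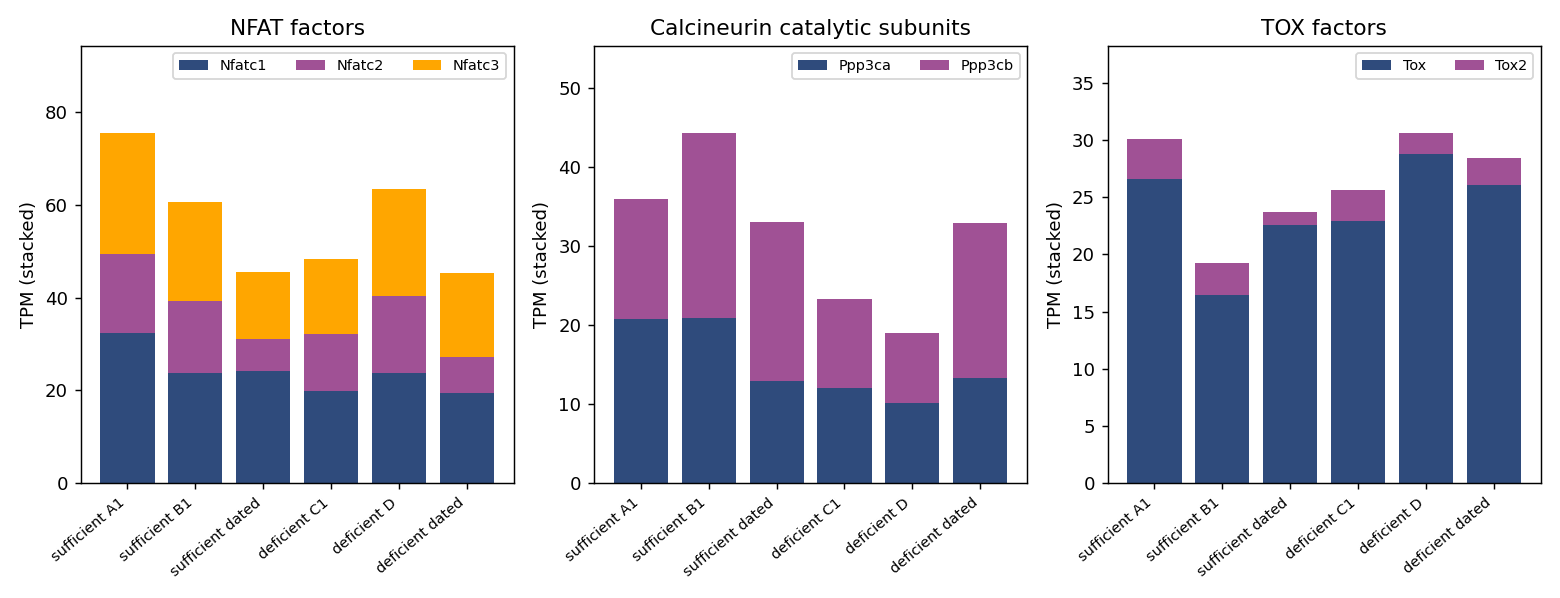
Level in TPM of Nfatc1, Nfatc2 and Nfatc3, of Ppp3ca and Ppp3cb, and of Tox and Tox2, stacked within each of the 6 libraries. The axis starts at 0, and the catalytic subunit gene Ppp3cc is not included. The summed NFAT level runs from 45.3 to 75.4 TPM with no separation of the groups, while the summed Ppp3ca and Ppp3cb level is lowest in deficient C1 and D, at 23.3 and 19.1 TPM.

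Ppp3ca and Ppp3cb encode the alpha and beta catalytic subunits of calcineurin, the phosphatase blocked by cyclosporin A and tacrolimus. Their differences had the smallest unadjusted p of the 8 genes, both were negative, and both came from the undated libraries. Ppp3ca had 4.44, 4.45 and 3.80 in sufficient A1, B1 and dated and 3.70, 3.48 and 3.84 in deficient C1, D and dated. The undated sufficient libraries were high and the other 4 lay close together. Its difference was -0.56 ± 0.26 SE (ENSMUSG00000028161.17, GRCm38 chromosome 3, 136670124 to 136937727, plus strand; 95% interval -1.15 to 0.04, unadjusted p = 0.0632, limma adjusted p = 0.452). Once the date mark was blocked, the interval was -1.10 to -0.010 and the adjusted p 0.246.

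Ppp3cb had 4.02, 4.61 and 4.41 in sufficient A1, B1 and dated and 3.62, 3.31 and 4.37 in deficient C1, D and dated. Deficient C1 and D lay below every sufficient library, and deficient dated lay near the sufficient dated library. Its difference was -0.58 ± 0.32 SE (ENSMUSG00000021816.11, GRCm38 chromosome 14, 20499364 to 20546573, minus strand; 95% interval -1.31 to 0.15, limma adjusted p = 0.519). In the 4 undated libraries Ppp3ca differed by -0.86 and Ppp3cb by -0.85, while the dated libraries gave 0.04 and -0.04. The difference in the dated pair minus that in the undated libraries was 0.90 for Ppp3ca (95% interval -0.07 to 1.87, limma adjusted p of the interaction 0.825) and 0.81 for Ppp3cb (95% interval -0.35 to 1.96, adjusted p = 0.887). That interaction test was chosen after the data were seen and called 0 of the 8 genes, with 0 of 8 at an unadjusted p under 0.05 against 6.1% of tested genes. The dated pair also set a library with Y-linked transcripts against one without. Eif2s3y was at 6.57 in sufficient dated and 0 in deficient dated, and at 6.49 or more in the undated libraries. Within the dated pair this difference coincides with the group, so their parts cannot be told apart there or in the interaction. Its part was not tested.

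Summed over Ppp3ca and Ppp3cb, the level was 35.9, 44.3 and 33.1 TPM in sufficient A1, B1 and dated and 23.3, 19.1 and 32.9 TPM in deficient C1, D and dated. The mean in deficient libraries was 0.664 times that in sufficient libraries, and the dated pair differed by little. This sum leaves out Ppp3cc, another catalytic subunit gene, which stood above both in every library. Ppp3cc had 5.50, 5.28 and 5.51 in sufficient A1, B1 and dated and 4.58, 4.57 and 6.18 in deficient C1, D and dated. Its undated libraries gave -0.81 and its dated pair 0.67 (limma adjusted p = 0.807 over all 6 libraries). Ppp3ca and Ppp3cb contributed about equally to their sum, and Ppp3ca held 47.9 ± 9.4% of it in sufficient and 48.4 ± 6.9% in deficient libraries (SD, n = 3 each; exact permutation p = 1). The libraries with the most macrophage transcripts in each group were sufficient B1 and deficient C1, and when both were left out the differences were -0.46 for Ppp3ca and -0.38 for Ppp3cb. Without the deficient dated library they were -0.64 and -0.88, with adjusted p of 0.274 and 0.152. Without deficient D they were -0.46 and -0.35.

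Rcan1, the calcineurin inhibitor, was near the filter. It stood at 1.73, 1.85 and 1.36 in sufficient A1, B1 and dated and at 0.85, 1.63 and 1.15 in deficient C1, D and dated. Deficient C1 and dated lay below every sufficient library, and deficient D was within their range. In TPM these values were 2.31, 2.61 and 1.56 against 0.80, 2.10 and 1.22. The difference was -0.43 ± 0.32 SE (ENSMUSG00000022951.16, GRCm38 chromosome 16, 92391953 to 92470867, minus strand; 95% interval -1.18 to 0.31, limma adjusted p = 0.626). It was -0.15 when sufficient B1 and deficient C1 were left out and, with 1 library left out at a time, between -0.25 (without deficient C1) and -0.65 (without deficient D). The gene has 5 annotated protein-coding transcripts, and a gene-level value does not separate those of the internal start with 3 NFAT core matches from those of the upstream start with 0.

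Tox encodes an HMG-box nuclear factor linked to T cell exhaustion and to CD4 lineage development, and it was the member with a positive difference. It had 4.79, 4.12 and 4.56 in sufficient A1, B1 and dated and 4.58, 4.90 and 4.76 in deficient C1, D and dated. Deficient D was highest and sufficient B1 lowest, with the other 4 between 4.56 and 4.79. The difference was 0.26 ± 0.23 SE (ENSMUSG00000041272.11, GRCm38 chromosome 4, 6686353 to 6991557, minus strand; 95% interval -0.27 to 0.79, limma adjusted p = 0.696). The undated libraries gave 0.29 and the dated pair 0.20, and the difference was 0.07 without sufficient B1 and 0.40 without sufficient A1. Exons of the antisense gene Gm11802 overlap Tox, but Gm11802 reached at most 0.12.

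Tox2, a close relative of Tox that is known for its part in follicular helper T cells, had 2.18, 1.95 and 1.08 in sufficient A1, B1 and dated and 1.89, 1.48 and 1.77 in deficient C1, D and dated. All deficient libraries lay within the sufficient range. The difference was -0.03 ± 0.36 SE (ENSMUSG00000074607.11, GRCm38 chromosome 2, 163203125 to 163324170, plus strand; 95% interval -0.85 to 0.80, limma adjusted p = 0.988). The undated libraries gave -0.38 and the dated pair 0.68, with opposite signs. Tox made up 85.2% to 95.3% of the summed Tox and Tox2 TPM, with 89.6 ± 5.2% in sufficient and 91.7 ± 2.3% in deficient libraries (SD, n = 3 each; exact permutation p = 0.5).

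**Figure D3:**
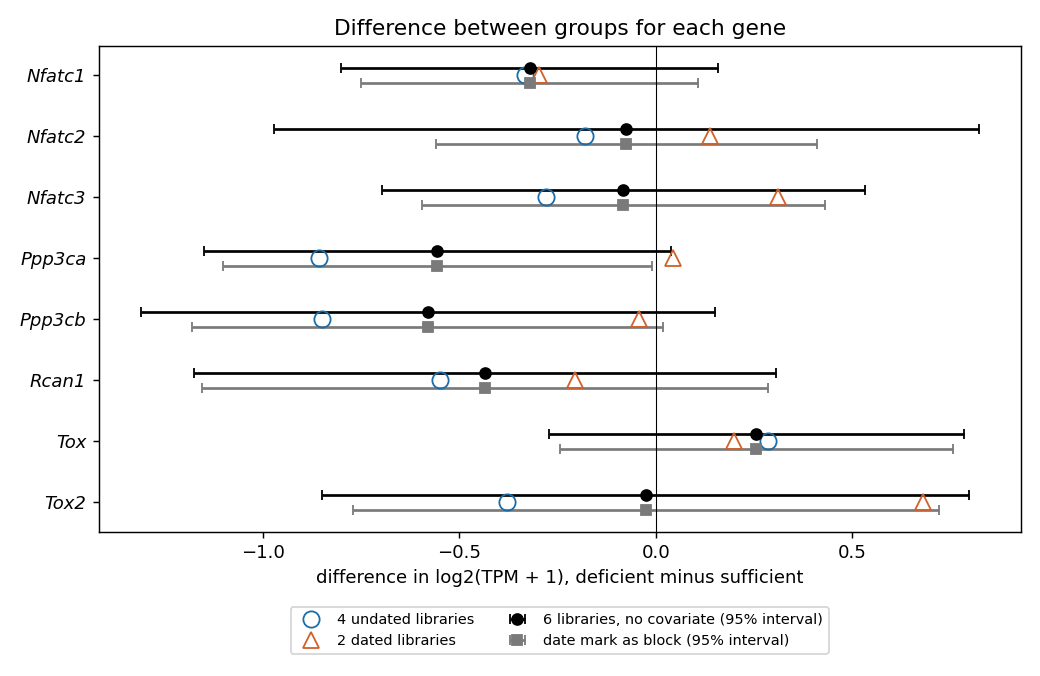
Difference in log2(TPM + 1), deficient minus sufficient, on the horizontal axis for each gene, from all 6 libraries without a covariate (black, 95% interval) and with the date mark as a block (grey, 95% interval), with the undated (blue circle) and dated (orange triangle) differences as points. All 8 black intervals include 0, and the undated and dated points of Ppp3ca and Ppp3cb lie far apart, at -0.86 and 0.04 and at -0.85 and -0.04.

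Scaling mattered to these small differences. Shifting each library to a common median moved the median difference of all tested genes from 0.09 to -0.04. On that scale the differences were -0.46 for Nfatc1, -0.69 for Ppp3ca, -0.72 for Ppp3cb, -0.57 for Rcan1 and 0.12 for Tox, and limma again called 0 of the 8. There 1 of the 8 had an unadjusted p under 0.05, against 1397 of 12155 tested genes. With quantile normalization limma also called 0 of the 8, but 2 had such a p, against 1541 of 12155. Among all genes limma called 16 higher and 9 lower without rescaling, 11 higher and 19 lower with a common median, and 16 higher and 22 lower with quantile normalization.

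Sufficient A1 held the highest value of 4 of the 8 genes (Nfatc1, Nfatc2, Nfatc3 and Tox2) and sufficient B1 that of 3 (Ppp3ca, Ppp3cb and Rcan1). Sufficient dated held the lowest value of 3 (Nfatc2, Nfatc3 and Tox2), and no member was highest in it. Ppp3cb, Nfatc2 and Tox2 varied most, with ranges of 1.30, 1.17 and 1.09 over the 6 libraries. The tested genes whose library pattern lay nearest to each were described by the root mean square difference of mean-centred log2 values over 6 libraries. Nearest to Nfatc2 were Kdm6b (0.069), a histone demethylase, Cep192 (0.072), a centrosome protein, and Sec61a1 (0.073), a subunit of the protein channel of the endoplasmic reticulum. Nearest to Tox2 were Frmd4b (0.090), Morc2a (0.091) and Capn1 (0.11), and nearest to Ppp3cb were D17Wsu92e (0.12), Fkbpl (0.14) and Zfand3 (0.15). With so many genes and so few libraries, close patterns arise readily, and this is a description only.

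Some other genes of the pathway had larger differences than the 8 members, in both directions. None passed over all genes in the main fit, which used all 6 libraries, no block, no rescaling and the filter at 1. Among 10 genes of calcium entry and release, all 10 tested, limma called 0 higher and 0 lower, and 3 had an unadjusted p under 0.05, against 11.7% of all tested genes. Orai1, the pore subunit of the store-operated calcium channel, had 6.80, 6.78 and 6.60 in sufficient A1, B1 and dated and 5.76, 5.67 and 6.28 in deficient C1, D and dated. Each deficient library lay below each sufficient one, and the difference was -0.82 ± 0.20 SE (limma adjusted p = 0.167, and 0.0633 with the date mark as a block). Undated libraries gave -1.08 and the dated pair gave -0.32. Orai1 passed without both dated libraries (adjusted p = 0.0266) and without the deficient dated library alone (difference -1.01, adjusted p = 0.0473).

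Orai2, a channel subunit that can dampen the current of Orai1, lay the other way, at 3.30, 2.70 and 2.83 in sufficient A1, B1 and dated and 3.87, 3.76 and 3.48 in deficient C1, D and dated (difference 0.76 ± 0.26 SE, limma adjusted p = 0.318). Saraf, which slows store-operated calcium entry, had a difference of 0.58 ± 0.18 SE (adjusted p = 0.258), and its groups did not overlap either. In this list 3 genes lay without overlap lower and 2 higher, where 6.73% and 10.9% of all tested genes did. The median difference of the list was 0.01.

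Of 6 calmodulin genes and other calcineurin subunits, 5 were tested, limma called 0, and 2 had an unadjusted p under 0.05 (11.7% of all tested genes did). Calm3 had 7.39, 7.29 and 7.19 in sufficient A1, B1 and dated and 6.42, 6.66 and 6.77 in deficient C1, D and dated (difference -0.67 ± 0.15 SE, limma adjusted p = 0.152). Calm2 lay without overlap in the other direction, from a mean of 9.47 ± 0.06 to 9.89 ± 0.10 (SD, n = 3 each; difference 0.42 ± 0.12 SE, adjusted p = 0.251). Calm2 and Calm3 encode the same protein, and Calm2 stood above Calm3 in every library.

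Calcineurin inhibitors and anchors differed little. Of 8 genes 6 were tested, with differences between -0.16 and 0.23. Limma called 0, and 0 had an unadjusted p under 0.05 (11.7% of all tested genes did). Those of smallest p were Tbc1d10c (0.17), which encodes the calcineurin inhibitor carabin, Fkbp1a (-0.16), the binding protein of tacrolimus, and Chp1 (0.19). NFAT kinases and partners were similar, with 7 of 9 tested, 0 called, 0 at an unadjusted p under 0.05 and differences between -0.29 and 0.08. In it, Dyrk1a and Gsk3b, kinases that return NFAT to the cytoplasm, each had -0.29, and Gsk3a had -0.28. Single libraries moved these values: Dyrk1a had -0.14 without deficient C1, Gsk3b had -0.13 without sufficient A1 and -0.52 without deficient D, and Gsk3a had -0.12 without deficient C1 and -0.55 without deficient dated.

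Of the family relatives, Nfatc4 and Tox3 did not pass the filter. Nfat5, the calcineurin-independent family member that responds to osmotic stress, had 3.84, 3.57 and 3.00 in sufficient A1, B1 and dated and 2.96, 3.05 and 2.32 in deficient C1, D and dated. The difference was -0.70 ± 0.33 SE (limma adjusted p = 0.456, and 0.135 with the date mark as a block). Undated and dated libraries gave -0.70 and -0.69, though the groups overlapped because sufficient dated was below deficient D. Tox4 had 0.02. Limma called 0 of these 2, and 0 had an unadjusted p under 0.05, against 11.7% of all tested genes. With the block 1 did, against 19.7%.

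Genes reported as NFAT targets had mostly negative differences, with no call over all genes in the main fit. Of 21, 20 were tested, 15 had negative differences, the median was -0.50, limma called 0 and 8 had an unadjusted p under 0.05. Of all tested genes 39.9% had negative differences, with a median of 0.09, and 11.7% had such a p. The groups did not overlap for 7 lower and 2 higher genes, against 6.73% and 10.9% of all tested genes. Blocking on the date mark, which called 1.97% of all tested genes, 2 fell, Fasl at -1.23 and Lag3 at -1.39, and 1 rose, Dgka at 0.90, with adjusted p of 0.0234, 0.0409 and 0.024. Fasl encodes a death ligand, Lag3 an inhibitory receptor, and Dgka a diacylglycerol kinase that restrains T cell receptor signalling and is linked to unresponsiveness. Dgka had 6.86, 6.84 and 6.44 in sufficient A1, B1 and dated and 7.58, 7.91 and 7.36 in deficient C1, D and dated. All deficient libraries exceeded all sufficient ones for Dgka, and without the block its adjusted p in limma was 0.142. For Fasl it was 0.0562 without the block and 0.0493 without the deficient dated library. For Lag3 it was 0.193 without the block and 0.0967 without both dated libraries. Many of these genes have other regulators, so the list is no measure of NFAT activity by itself. This list and the other pathway lists were chosen with earlier results of these data known. Their counts beside those of all tested genes are therefore a description only.

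**Figure D4:**
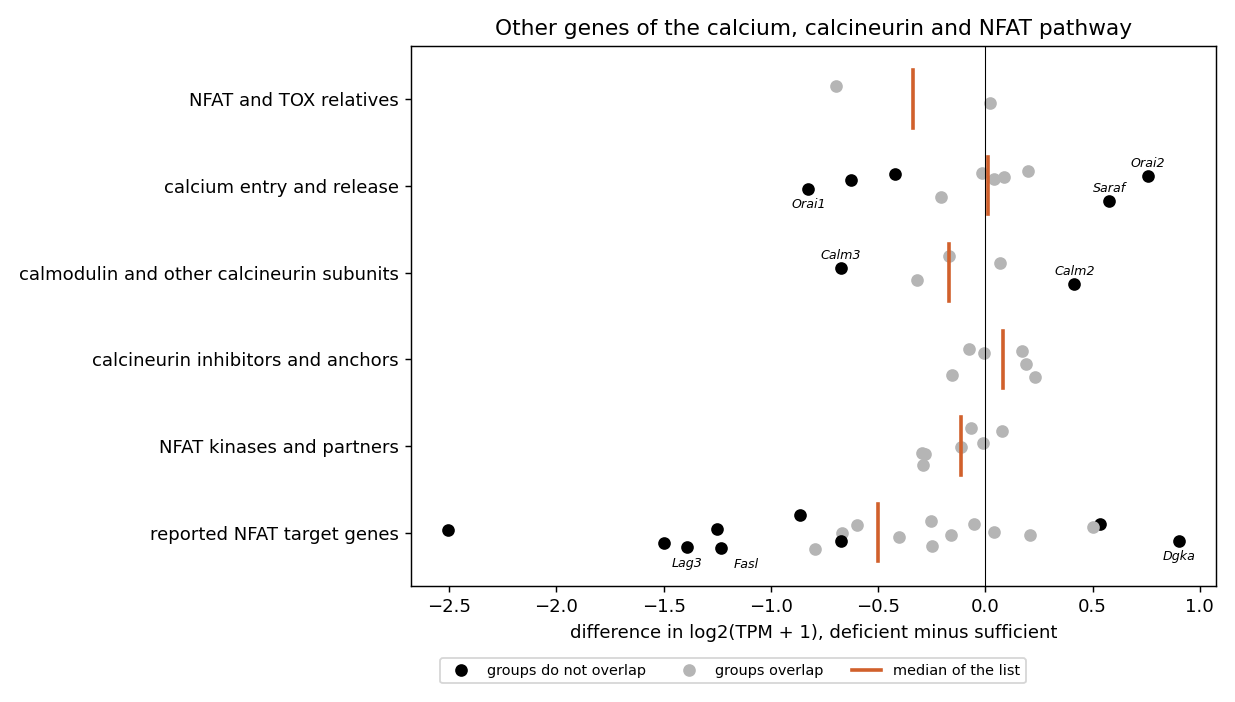
Difference in log2(TPM + 1), deficient minus sufficient, for each tested gene of 6 pathway lists, with genes whose groups do not overlap in black, others in grey and the list median as an orange bar. Orai1 (-0.82) and Orai2 (0.76), and Calm3 (-0.67) and Calm2 (0.42), lie on opposite sides of 0. None of the genes passed in the main fit (all 6 libraries, no block, no rescaling, filter at 1).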

How the data were processed

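Treg cells were sorted into lysis buffer and a Nextera XT kit was used for the libraries, per the labels' protocols. The submitters' processing notes list STAR, RSEM and limma and the builds GRCm38 and mm10, with no versions. The deposited log2 values are log2(TPM + 1) made by the authors: raised back, each library sums to between 999999 and 1000001. All 55450 identifiers matched the supplied GENCODE mouse names on GRCm38, and 27 date-like symbols were replaced. Column names gave the group but not the replicate number.

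Genes at 1 or more in at least 3 of 6 libraries (12155) were fitted with limma 3.58.1 in R 4.3.3 (trend, no covariate), adjusted by Benjamini-Hochberg over all tested genes and called under 0.05. Shares used exact permutation tests in scipy 1.17.1. The limma fit without a block was tested on simulated data. The members and lists were chosen with earlier results of these data known. Named genes were Havcr2, the members, the 3 genes of smallest p in each list, any called with or without the date block, and the 3 of nearest pattern to the 3 widest members. A gene that this rule names is not reported here. Alternatives covered the filter, scaling, pseudocount, variance model, block and libraries used.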

Additional observations from a re-analysis of the deposited data

How the results depend on the processing

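No member was called by limma under any of the 16 alternatives (15 for Rcan1 and Tox2, which the stricter filter removed), and their adjusted p were 0.129 or more. Nfatc1, Ppp3ca, Ppp3cb, Rcan1 and Tox kept their sign in all of them. The count of 25 called genes became 240 with the date mark as a block, 1 with no filter, 38 with quantile normalization, 4 without the variance trend, 215 without both dated libraries and 0 (748 at an unadjusted p under 0.05) without sufficient B1 and deficient C1, an alternative chosen after seeing the data. Leaving out each library in turn, with the same genes tested, gave 0 (without sufficient B1 or deficient D, with 978 and 944 at an unadjusted p under 0.05) to 121 (without deficient dated), with 2 without sufficient A1 and 11 without deficient C1. Signs turned for values near 0: Tox2 had 0.0058 with a pseudocount of 0.1, Tox4 -0.12 with quantile normalization and -0.11 with a common median, and without sufficient B1 and deficient C1 Nfatc2 had 0.048, Nfatc3 0.072 and Tox4 -0.0085. Leaving out 1 library gave -0.44 to 0.19 for Nfatc2, -0.31 to 0.098 for Nfatc3, -0.35 to 0.19 for Tox2 and -0.27 to 0.31 for Tox4, and, in percentage points of a share, -1.21 to 4.51 for Nfatc2, -4.00 to 5.38 for Ppp3ca and -0.063 to 4.995 for Tox. Fasl also passed with the stricter filter and with quantile normalization (adjusted p = 0.0495 and 0.0419), and Dgka without both dated libraries (0.049). The cause was not tested. No paired analysis was possible because the columns carry no replicate number of the labels. Depth is unknown, so no counting limit can be given for Rcan1 or Tox2.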
